A study of Mus musculus with 11 samples.

Results

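The matrix metalloproteinases (MMPs) examined here are 10 genes of the mouse heart, Mmp2, Mmp3, Mmp8, Mmp9, Mmp11, Mmp12, Mmp14, Mmp19, Mmp23 and Mmp28. They were taken by symbol from a named list, and each matched 1 row of the 55421 genes in the deposited count table. A further 13 MMP genes in the table were kept apart as a comparison list, because the named list did not hold them.

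RNA was sequenced from 11 hearts of female C57BL/6J mice, 8 weeks old. In 8 mice a myocardial infarction (MI) was induced by ligating the left anterior descending coronary artery (LAD), and tissue was taken 3 days later from the infarct and its border zone. Of these, 4 mice received the hydroxamate GI254023X, an inhibitor of the sheddase ADAM10 (A10i, 100 mg/kg, from osmotic minipumps), and 4 received the solvent DMSO. The remaining 3 mice were sham-operated (Sham), also received DMSO and gave healthy heart tissue. The day of tissue collection in the Sham group is not given in the labels. All groups share strain, sex, age and solvent, and no gene was deleted in any of them. Every library is 1 mouse with its own number in the labels, S1, S2 and S3 for Sham, A105, A127, A128 and A129 for DMSO, and A116, A117, A119 and A120 for A10i. Values are listed in that order throughout. A10i acts on enzymes and the measurements are mRNA, so neither MMP protein nor MMP activity was measured.

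MMPs are zinc-dependent proteases that cut collagens, elastin, proteoglycans and many signalling proteins. They are made as inactive precursors, in which a propeptide covers the zinc, and are held in check by tissue inhibitors of metalloproteinases (TIMPs). After an infarction they come from neutrophils, macrophages, fibroblasts, vessels and cardiomyocytes, and they are known for clearing and rebuilding the damaged matrix.

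The total count lay between 21702623 and 29511768 per library, and the counts of each member summed over the 11 libraries lay between 1273 for Mmp8 and 19683 for Mmp2. Normalized counts below are counts scaled by the library size after trimmed-mean (TMM) normalization, relative to the mean library of 25576600 counts. Levels of different genes were compared only as TPM, which correct for exonic length and give every library the same total. Transcripts of the mitochondrial genome held 21.5 to 22.2% of the counts in Sham, 14.8 to 18.6% in DMSO and 15.7 to 17.9% in A10i hearts. Of 8 cardiomyocyte markers, 4 (Myh6, Ryr2, Pln and Myl2) were lower in DMSO than in Sham and 2 (Myh6 and Myl2) were lower in A10i than in Sham, and their summed level was 74177 to 75882 CPM (counts scaled to the same library total) in Sham, 34826 to 50739 in DMSO and 41446 to 57319 in A10i hearts. The Sham tissue was therefore cardiac by its markers, and in such bulk tissue fewer cells of a type and less RNA per cell cannot be told apart.

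The members lie on 7 chromosomes, and 3 of them, Mmp12, Mmp3 and Mmp8, are neighbours in a group of 10 MMP genes that spans 427 kb of chromosome 9, from Mmp13 to Mmp7 (chr9:7272514-7699585, mm10). The RefSeq promoter table (GRCm38.p6, 250 bases before to 50 after a transcript start) held entries for 7 members and 9 starts. Mmp2, Mmp9 and Mmp19 had no entry. The promoters shown are those of the chromosome 9 members, which had the 3 highest fitted fold changes against Sham in both infarcted groups, and those of Mmp14, which rose, and Mmp28, which fell, all 5′ to 3′ on the strand of the gene. Capitals mark matches on either strand to 1 of the motifs searched, which were the AP-1 motif TGANTCA, the TATA box TATAAA, the GC box GGGCGG, the ETS core GAGGAA and the NF-kB motif.
Mmp3, chr9:7445572-7445871, plus strand: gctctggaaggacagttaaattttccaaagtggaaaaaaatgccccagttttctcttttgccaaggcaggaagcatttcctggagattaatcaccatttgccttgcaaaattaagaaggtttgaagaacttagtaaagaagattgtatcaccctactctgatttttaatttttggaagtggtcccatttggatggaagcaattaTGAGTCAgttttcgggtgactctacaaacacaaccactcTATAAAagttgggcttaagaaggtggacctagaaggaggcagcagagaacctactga
Mmp8, chr9:7558179-7558478, plus strand: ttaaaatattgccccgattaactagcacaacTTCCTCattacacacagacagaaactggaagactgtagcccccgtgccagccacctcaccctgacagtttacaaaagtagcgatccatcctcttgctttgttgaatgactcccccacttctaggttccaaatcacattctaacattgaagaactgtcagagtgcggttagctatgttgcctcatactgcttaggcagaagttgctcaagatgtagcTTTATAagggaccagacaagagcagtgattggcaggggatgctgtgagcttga
Mmp12, downstream start, chr9:7347124-7347423, plus strand: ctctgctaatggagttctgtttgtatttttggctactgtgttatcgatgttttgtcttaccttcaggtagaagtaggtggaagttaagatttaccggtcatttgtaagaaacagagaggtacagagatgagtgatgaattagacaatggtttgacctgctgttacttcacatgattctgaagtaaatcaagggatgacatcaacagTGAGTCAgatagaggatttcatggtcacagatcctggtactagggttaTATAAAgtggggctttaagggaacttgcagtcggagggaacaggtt
Mmp14, chr14:54431348-54431647, plus strand: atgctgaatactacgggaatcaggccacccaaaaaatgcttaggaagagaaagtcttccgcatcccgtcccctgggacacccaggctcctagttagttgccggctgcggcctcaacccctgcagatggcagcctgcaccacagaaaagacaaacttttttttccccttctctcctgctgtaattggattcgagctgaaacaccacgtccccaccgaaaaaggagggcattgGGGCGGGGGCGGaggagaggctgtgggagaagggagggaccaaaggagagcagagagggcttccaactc
Mmp28, chr11:83462991-83463290, minus strand: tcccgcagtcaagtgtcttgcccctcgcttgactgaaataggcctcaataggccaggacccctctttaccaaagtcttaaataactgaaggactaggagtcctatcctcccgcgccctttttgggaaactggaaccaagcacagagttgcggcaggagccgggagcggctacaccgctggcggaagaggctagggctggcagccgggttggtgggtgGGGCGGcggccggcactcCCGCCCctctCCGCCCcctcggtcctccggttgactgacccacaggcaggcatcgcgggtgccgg

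In the Mmp3 promoter the AP-1 match lay at bases -46 to -40 from the start and the TATA match at -7 to -2. The downstream Mmp12 start had the same pair, with AP-1 at -44 to -38 and TATA at 5 to 10, whereas the upstream Mmp12 start (chr9:7344147-7344446) held a single ETS match. The Mmp8 window held a TATA match across the start and an ETS match at -219 to -214, and no AP-1 match. Mmp14 held 2 GC boxes that abut, at -19 to -14 and -13 to -8, and Mmp28 held 3, so the motif did not separate a gene that rose from one that fell. Mmp11 held 4 GC boxes, and Mmp23 held 2 at its downstream start and 0 at its upstream start. The GC content was 38.7 to 46.0% in the 4 windows of the chromosome 9 members and 56.0 to 67.0% in the other 5, against a median of 52.7% over all promoters of the table. Of 32851 promoters of this length, 7.81% held the AP-1 motif, 13.6% the TATA box, 35.7% the GC box, 28.3% the ETS core and 1.63% the NF-kB motif, which matched in 0 of the members' windows. These matches describe letters in a window and not binding, which was not measured.

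The first question was which MMP genes differ between infarcted and sham-operated hearts. With DMSO, 7 of the 10 members were higher than in Sham and 1, Mmp28, was lower (edgeR's quasi-likelihood test, Benjamini-Hochberg adjusted over all genes, threshold 0.01). The background is 12.9% of 17117 genes called higher and 9.6% called lower. The median log2 fold change was 2.77 over the members and 0.0021 over all genes tested. With A10i, 6 members were higher than in Sham and 0 were lower at the same threshold, on a background of 13.7% higher and 9.11% lower among 16971 genes. Their median was 2.40, beside -0.0054 over all genes. Both comparisons use the same 3 Sham libraries and are therefore not independent of each other. The members were chosen with earlier results of these data known, so their calls and medians beside all genes are a description and not a test. Of the MMP genes kept apart as a comparison list, 7 were tested between DMSO and Sham, with 1 higher and 1 lower. All 10 members passed the filter on low counts in every comparison, but Mmp8 and Mmp12 had few or no counts in Sham and passed through the infarcted groups. Mmp3, with 9 reads in S2, would not have passed on the Sham libraries alone. The filter thus in part fixed the calls of these members as higher than in Sham.

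**Figure D1:**
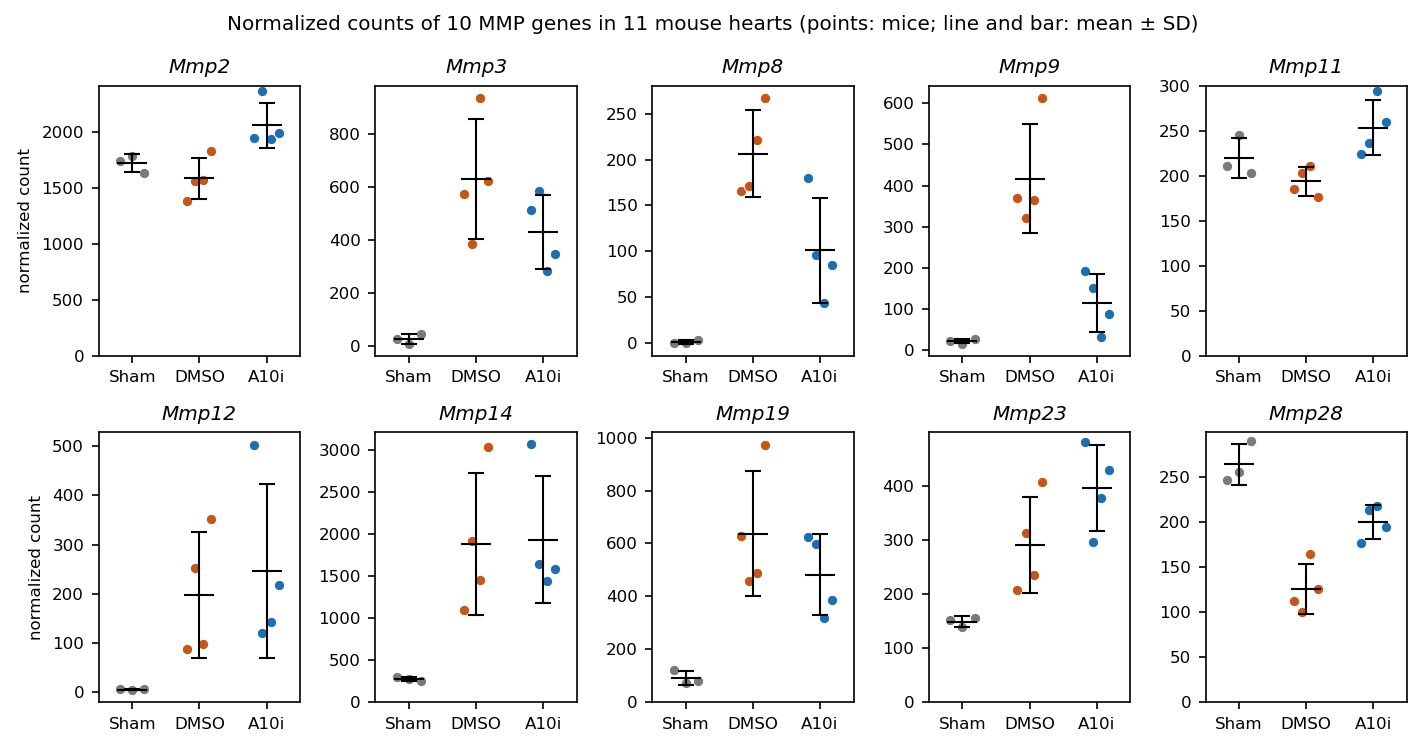
Normalized counts (y axis, linear) of each of the 10 MMP genes in the Sham, DMSO and A10i groups. Points are mice, and the line and bar are the mean and SD over 3, 4 and 4 mice. Mmp8, Mmp9 and Mmp12 are near 0 in Sham, Mmp2 and Mmp11 stay within a narrow range in all groups, and Mmp28 is lower in both infarcted groups than in Sham.

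The second question was whether A10i changed the MMP genes of the infarcted heart. In edgeR, 0 members passed the threshold between A10i and DMSO, on a background of 0% of 16792 genes called higher and 0% called lower. At an unadjusted p under 0.05, 3 members were higher with A10i (Mmp2, Mmp11 and Mmp28) and 2 were lower (Mmp8 and Mmp9), where the background is 7.1% higher and 6.73% lower. For 4 members the values of the 4 A10i mice lay wholly apart from those of the 4 DMSO mice, with Mmp2, Mmp11 and Mmp28 higher and Mmp9 lower. Such a separation occurred upwards in 4.01% and downwards in 4.11% of all genes tested. In the exact permutation test on log2 CPM (two-sided) these 4 members had p = 0.0286, the smallest value that 4 against 4 mice can give. Groups that lie wholly apart always give this value, so the test restates the separation and adds no evidence to it. The permutation p-values were not adjusted for the number of members tested. The Wald test of DESeq2 likewise called 0 members at 0.01, although it called 227 genes in all.

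**Figure D2:**
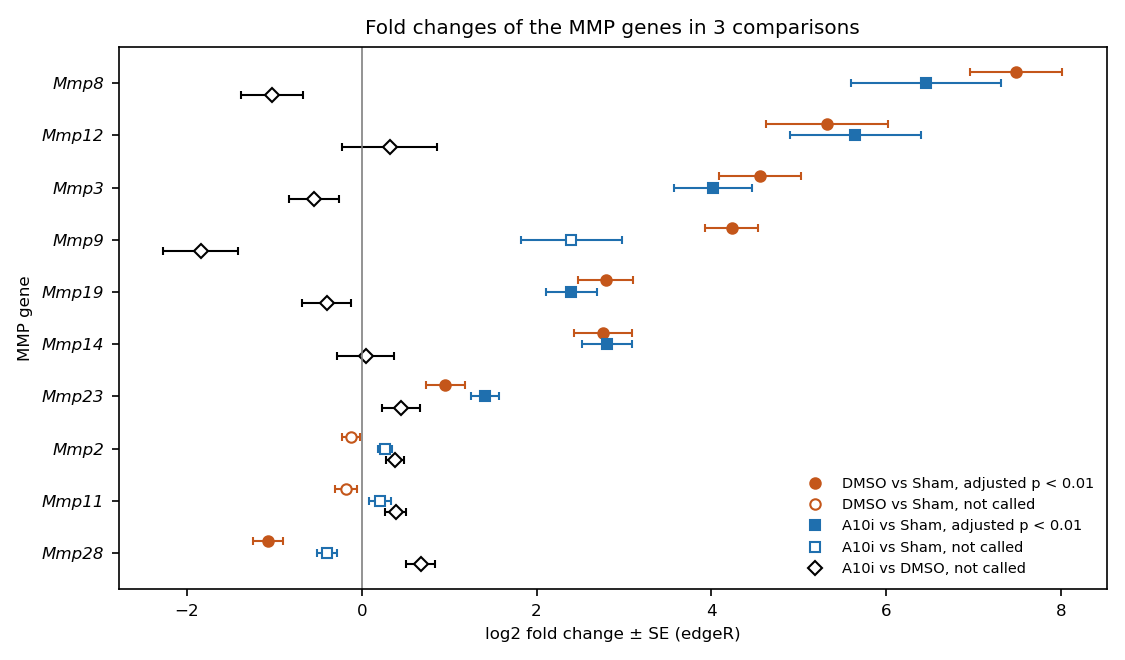
Log2 fold change (x axis, edgeR, with SE) of the 10 MMP genes in 3 comparisons, ordered by the change from Sham to DMSO. Filled symbols passed an adjusted p of 0.01. The changes from Sham reach a fitted 7.49 for Mmp8, a value that rests on 3 Sham counts, while between A10i and DMSO they range from -1.84 for Mmp9 to 0.67 for Mmp28 and all symbols are open.

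Mmp9 (ENSMUSG00000017737, chr2:164940780-164955850, plus strand) encodes a secreted gelatinase stored in neutrophil granules and also made by macrophages. It had 23.3, 16.3 and 26.8 normalized counts in Sham, 369.8, 321, 366 and 612 with DMSO, and 193, 150.4, 32.7 and 87.4 with A10i. All DMSO hearts were above all A10i hearts, and the A10i heart A119 lay close to Sham. The mean was 22.1 ± 5.37 (SD, n = 3) in Sham, 417 ± 132 (n = 4) with DMSO and 115.8 ± 70.3 (n = 4) with A10i. From Sham to DMSO the log2 fold change was 4.23 (SE 0.30, edgeR adjusted p = 5.15e-05). From Sham to A10i it was 2.40 (SE 0.58, adjusted p = 0.0113), just outside the threshold. That call was made without A119 (adjusted p = 0.00046), in the fit of all 11 libraries (0.00776) and by DESeq2 (1.03e-05). A10i and DMSO hearts differed by -1.84 (SE 0.43) on the log2 scale, a level 3.58-fold lower with A10i, with adjusted p = 0.121 in edgeR and 0.0271 in DESeq2. Leaving out each library in turn moved this change between -2.19 and -1.53 and never brought it past the threshold.

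Mmp8 (ENSMUSG00000005800, chr9:7558456-7568485, plus strand) encodes the collagenase of neutrophils. Its normalized counts were 0, 0 and 3.09 in Sham, 166, 171, 222 and 267 with DMSO, and 179, 95.9, 43.3 and 85.1 with A10i. The transcript was close to absent from Sham hearts, where 3 reads were counted over 3 libraries, and the A10i heart A116 lay within the DMSO range. The ratio of summed counts to Sham was 201 with DMSO (881 against 3 counts, 95% exact interval 68.5 to 976, counting error only) and 99.2 with A10i (389 against 3 counts, 33.7 to 483). Both increases passed the threshold (edgeR adjusted p = 4.17e-05 and 0.000834). The log2 fold change between A10i and DMSO was -1.03 (SE 0.36, edgeR adjusted p = 0.247, DESeq2 0.0804), and the exact permutation test gave p = 0.0857 for its log2 CPM.

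The neutrophil markers moved alongside these genes. Of 16 markers, 12 passed the low count filter and 11 were higher with DMSO than in Sham, among them S100a9, S100a8 and Csf3r, while Mxd1, another of the 4 most abundant, was not called. With A10i 10 of 12 were higher than in Sham. Between A10i and DMSO edgeR called 0 of 12 and DESeq2 called 6 lower, 9 had an unadjusted p under 0.05 in edgeR and all 12 fold changes were negative, with a median log2 fold change of -1.58. The summed level of the 16 markers was 14.6 to 15.1 CPM in Sham, 101 to 199 CPM with DMSO and 31.9 to 81.7 CPM with A10i, so the infarcted groups did not overlap. Mxd1 averaged 10.8 CPM over the 11 libraries, with means of 256 normalized counts in Sham, 307 with DMSO and 263 with A10i. It therefore made up most of the Sham sum, and a larger part of the sum with A10i than with DMSO. The shares of the 16 markers given below have this unequal part in their denominator. Ly6g and Trem1 were at 0 in every Sham library, and S100a8 and S100a9 had means of 2.09 and 5.26 normalized counts there. At least Trem1, S100a8 and S100a9 thus passed the filter through the infarcted hearts, so that the filter in part fixed the counts of markers higher than in Sham. The same may hold for further markers of the list, which were not examined singly. Mmp8 amounted to 5.67 ± 0.793% (SD, n = 4) of the marker CPM with DMSO and 6.82 ± 1.43% with A10i, in ranges that overlapped. Mmp9 amounted to 11.3 ± 1.20% with DMSO and 7.74 ± 3.27% with A10i, again with overlap, from 4.01% in A119 to 11.4% in A117. The A10i to DMSO ratio of these shares was 1.20 for Mmp8 and 0.69 for Mmp9. Against S100a8 and S100a9 alone the ratios were 1.85 and 1.03. On that base Mmp8 amounted to 11.1 to 17.0% with DMSO and 21.1 to 30.5% with A10i, which did not overlap, and Mmp9 to 21.1 to 36.4% and 19.1 to 44.2%, which did, so the position of both genes relative to neutrophil transcripts depended on the markers used. The part of the neutrophil markers in the Mmp8 and Mmp9 values was not tested.

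**Figure D3:**
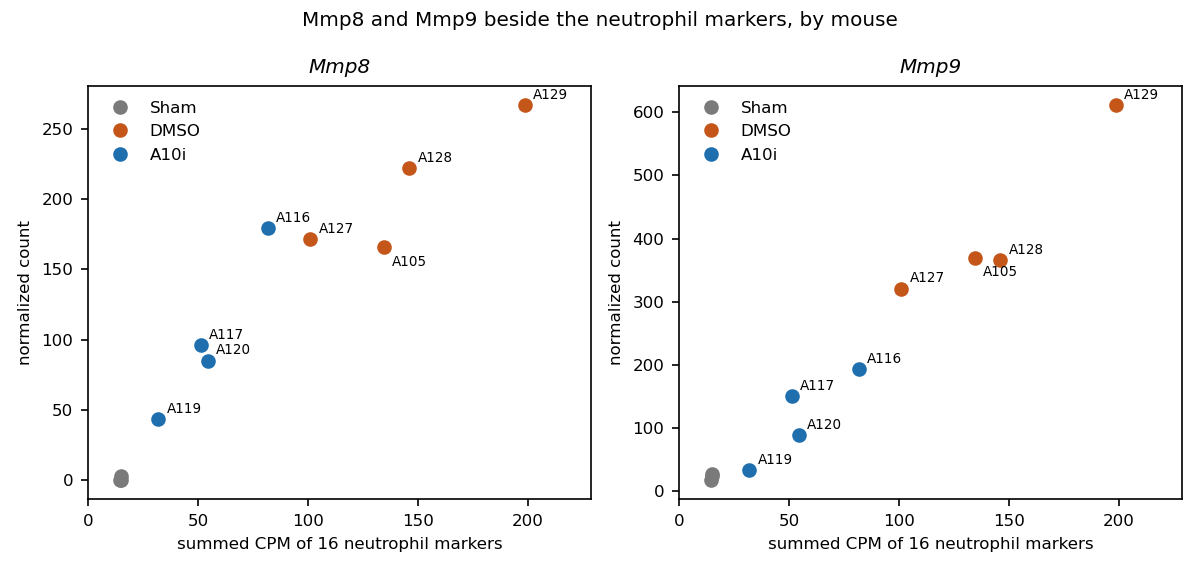
Normalized counts of Mmp8 and Mmp9 (y axes) against the summed CPM of 16 neutrophil markers (x axis, none of them an MMP) in 11 mice, coloured by group. The A10i mice lie between 31.9 and 81.7 CPM and the DMSO mice between 101 and 199 CPM, and A116, the A10i mouse with the most marker RNA, also has the most Mmp8 and Mmp9 of its group. The sum includes Mxd1, which edgeR did not call in any comparison and which made up most of the sum in Sham.

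Mmp12 (ENSMUSG00000049723, chr9:7344381-7369499, plus strand) encodes the elastase of macrophages. It had 5.54, 3.82 and 5.15 normalized counts in Sham, 88.4, 253, 96.9 and 351 with DMSO, and 503, 121, 142 and 218 with A10i. The infarcted groups overlapped widely, and the spread within each was large, with a coefficient of variation of 64.6% with DMSO and 71.6% with A10i. Against Sham the log2 fold change was 5.32 (SE 0.70, edgeR adjusted p = 0.000745) with DMSO and 5.65 (SE 0.75, adjusted p = 0.000974) with A10i. Without the filter on low counts these became 0.0102 and 0.0105, just outside the threshold. The A10i hearts differed from the DMSO hearts by 0.32 (SE 0.54, adjusted p = 0.840), and without A116 it was -0.29. Of 14 macrophage markers, 10 were higher with DMSO and 12 with A10i than in Sham, and 0 were called between A10i and DMSO by edgeR or DESeq2, with 6 higher and 1 lower at an unadjusted p under 0.05. Their summed level was 298 to 326 CPM in Sham, 577 to 1433 CPM with DMSO and 668 to 1561 CPM with A10i, with no marker at 0 in any group, and its part in the Mmp12 values was not tested. Mmp12 overlaps Mmp1b, on the opposite strand, by 1261 bases. Mmp1b had 11 counts, all in A129, and how many reads fell in the overlap was not counted.

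Mmp3 (ENSMUSG00000043613, chr9:7445822-7455975, plus strand) encodes a stromelysin, which degrades proteoglycans and fibronectin and can activate other pro-MMPs. Its normalized counts were 26.6, 8.60 and 45.4 in Sham, 575, 386, 934 and 620.3 with DMSO, and 511, 583, 282 and 346 with A10i. Every infarcted heart was above every Sham heart, and the infarcted groups overlapped. S2 held 9 reads, and the gene passed the low count filter only with the help of the infarcted hearts. After MI it rose by 4.56 on the log2 scale (SE 0.47, edgeR adjusted p = 0.000271) with DMSO and 4.02 (SE 0.45, adjusted p = 0.000481) with A10i. For A10i against DMSO it was -0.54 (SE 0.29, adjusted p = 0.449).

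Mmp14 (ENSMUSG00000000957, chr14:54431612-54445364, plus strand) encodes a membrane-anchored collagenase that activates pro-MMP2 at the cell surface. It had 299, 274 and 259.8 normalized counts in Sham, 1099.7, 1919, 1456 and 3041 with DMSO, and 3069, 1642, 1447 and 1587 with A10i. Infarcted hearts were higher without exception, and A129 and A116 stood above the rest of their groups. They also did so for Mmp12, Mmp23 and Timp1. By the summed level they did so for the macrophage markers and for the genes of matrix substrates listed below (10230 CPM in A129 and 12584 CPM in A116). Its log2 fold change against Sham was 2.76 (SE 0.33, edgeR adjusted p = 0.000521) with DMSO and 2.81 (SE 0.29, adjusted p = 0.000367) with A10i. Set against DMSO, A10i gave 0.04 (SE 0.33, adjusted p = 0.972), and its sign turned without A105, without A128 or without A116, over a range of -0.26 to 0.38.

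Mmp2 (ENSMUSG00000031740, chr8:92827291-92853420, plus strand) encodes the second gelatinase, which is made by fibroblasts and other resident cells and is the substrate of Mmp14. It had 1745, 1789.8 and 1632 normalized counts in Sham, 1384, 1559, 1569 and 1829.7 with DMSO, and 1946, 2362, 1941 and 1995 with A10i. All A10i hearts were above all DMSO and all Sham hearts, while DMSO and Sham overlapped. The log2 fold change from Sham was -0.12 (SE 0.10, edgeR adjusted p = 0.346) with DMSO and 0.26 (SE 0.08, adjusted p = 0.0274) with A10i, so neither was called, although the latter was without A116 (adjusted p = 0.00881). A10i against DMSO gave 0.38 (SE 0.10, adjusted p = 0.157 in edgeR and 0.0495 in DESeq2), a level 1.30-fold higher with A10i. Fibroblast markers were given beside this gene because fibroblasts are a known source. Of 8 markers, 2 (Postn and Cthrc1) were higher with DMSO than in Sham, 5 (Pdgfra, Lum, Dpt, Postn and Cthrc1) were higher with A10i than in Sham, and between A10i and DMSO edgeR called 0 and DESeq2 called 1, Dpt, higher, with 2 higher at an unadjusted p under 0.05. Their summed level was 1591 to 1706 CPM in Sham, 1332 to 1513 CPM with DMSO and 1924 to 2138 CPM with A10i, but Gsn, which encodes gelsolin, held much of that sum, with a mean of 34155 normalized counts in Sham, 21089 with DMSO and 26859 with A10i. It was the only marker with a negative fold change for DMSO against Sham (-0.70, adjusted p = 0.0208, not called), and the other 7 were positive, so the lower sum with DMSO does not describe the list. The gap of the sums between A10i and DMSO lay mostly in Gsn and Postn. Postn had means of 7385 ± 5165 normalized counts (SD) with DMSO and 14531 ± 6089 with A10i. Both genes overlapped between these groups and were not called. In this comparison 7 markers had a positive fold change and 1, Pdgfra, a negative one (-0.15). No fibroblast marker was at 0 in any group, and their part in the Mmp2 values was not tested.

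Mmp28 (ENSMUSG00000020682, chr11:83440768-83463071, minus strand) encodes epilysin, a secreted MMP with a furin site. It was the only member called lower than in Sham, and only with DMSO. Its normalized counts were 247, 255 and 289.7 in Sham, 112, 100.3, 165 and 125 with DMSO, and 176, 214, 217 and 194 with A10i. The 3 groups did not overlap at any point, with A10i between DMSO and Sham. The log2 fold change from Sham was -1.07 with DMSO (SE 0.17, edgeR adjusted p = 0.00141, or 0.0105 without S3) and -0.39 with A10i (SE 0.11, adjusted p = 0.0189, not called). Relative to DMSO, the A10i value was 0.67 (SE 0.17, adjusted p = 0.139 in edgeR and 0.0193 in DESeq2), a level 1.59-fold higher with A10i.

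Mmp11 (ENSMUSG00000000901, chr10:75923222-75936496, minus strand) encodes a stromelysin that furin activates inside the cell. It had 211, 246 and 203 normalized counts in Sham, 185, 203, 212 and 177 with DMSO, and 225.1, 236, 294 and 259.8 with A10i. The A10i hearts were above the DMSO hearts, and both overlapped Sham. The log2 fold change from Sham was -0.18 (SE 0.12, edgeR adjusted p = 0.260) with DMSO and 0.21 (SE 0.12, adjusted p = 0.207) with A10i. The change from DMSO to A10i was 0.39 (SE 0.12, adjusted p = 0.202 in edgeR and 0.124 in DESeq2).

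Mmp19 (ENSMUSG00000025355, chr10:128790910-128800824, plus strand) encodes a secreted MMP that cleaves basement membrane proteins. It had 122, 71.7 and 82.5 normalized counts in Sham, 627, 459, 489 and 974 with DMSO, and 624, 599, 318 and 385 with A10i. Its increase was 2.79 on the log2 scale (SE 0.32, edgeR adjusted p = 0.000398) with DMSO and 2.40 (SE 0.30, adjusted p = 0.000662) with A10i. The infarcted groups overlapped, and the difference between A10i and DMSO was -0.40 (SE 0.28, adjusted p = 0.577).

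Mmp23 (ENSMUSG00000029061, chr4:155650655-155653384, minus strand) encodes an MMP that is anchored in the membrane by its N-terminal part and lacks the hemopexin domain of most family members. It had 153, 139 and 157 normalized counts in Sham, 208, 313, 235 and 406 with DMSO, and 482, 296, 378 and 430.0 with A10i. Every infarcted heart was above Sham, and the increase was smaller than that of the other members called. The log2 fold change was 0.96 with DMSO (SE 0.22, edgeR adjusted p = 0.00840) and 1.41 with A10i (SE 0.16, adjusted p = 0.000307). The call with DMSO was lost without S1 (adjusted p = 0.0330), without S2 (0.0404), without S3 (0.0316) and without A127 (0.0221), while the call with A10i remained in all 7 such fits. With A10i it was above DMSO by 0.45 (SE 0.22, adjusted p = 0.405).

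On the TPM scale the members made up a different mixture after MI. In Sham hearts Mmp2 was at 42.0 ± 2.04 TPM (SD, n = 3), followed by Mmp11, Mmp28 and Mmp23 at 6.52 ± 0.691, 5.61 ± 0.488 and 5.25 ± 0.320 TPM, which overlapped their neighbours in the order. Mmp14 followed at 3.83 ± 0.262 TPM, below Mmp23 and above Mmp19 without overlap. Mmp19, Mmp3 and Mmp9 followed at 2.14 ± 0.604, 1.23 ± 0.839 and 0.514 ± 0.124 TPM with overlap between neighbours, and Mmp12 and Mmp8 were last at 0.0550 ± 0.010 and 0.0350 ± 0.0606 TPM. With DMSO the order was Mmp2 at 46.2 ± 9.45 TPM (n = 4), Mmp3 at 34.1 ± 12.7, Mmp14 at 31.6 ± 16.9, Mmp19 at 17.9 ± 8.06, Mmp23 at 12.3 ± 4.84, Mmp9 at 11.7 ± 4.72, Mmp8 at 8.42 ± 2.63, Mmp11 at 6.81 ± 0.696, Mmp28 at 3.17 ± 0.788 and Mmp12 at 2.76 ± 1.97. Neighbours overlapped in this order except Mmp11 and Mmp28. With A10i the order was Mmp2 at 58.9 ± 5.79 TPM (n = 4), Mmp14 at 31.9 ± 14.96, Mmp3 at 23.2 ± 8.20, Mmp23 at 16.4 ± 4.10, Mmp19 at 13.3 ± 4.82, Mmp11 at 8.78 ± 0.747, Mmp28 at 4.97 ± 0.267, Mmp8 at 4.11 ± 2.61, Mmp12 at 3.38 ± 2.68 and Mmp9 at 3.23 ± 2.11. Here too only Mmp11 and Mmp28 were neighbours without overlap, and Mmp9 went from the 6th place with DMSO to the 10th with A10i.

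The sum of the 10 members was 67.2 ± 1.15 TPM in Sham, 175 ± 51.1 TPM with DMSO and 168 ± 38.0 TPM with A10i, given without a test. This is 2.603 times the Sham level with DMSO, 2.501 times with A10i, and a ratio of 0.96 between A10i and DMSO. The sum leaves out the MMP genes of the comparison list. Among those, Mmp15 was at 54.6 ± 2.19 TPM in Sham, 38.6 ± 6.41 TPM with DMSO and 43.0 ± 4.38 TPM with A10i. The ratios and shares given here therefore describe the 10 members and not all MMP transcripts. TPM scale each library to a fixed total, and the median log2 ratio to Sham over 15009 genes was 0.24 with DMSO and 0.21 with A10i on that scale. On TMM-scaled RPKM, where those medians were -0.01 and -0.02, the sums were 2.17 and 2.12 times the Sham level. For the same reason Mmp2 and Mmp11 were slightly higher with DMSO than in Sham in TPM and slightly lower in normalized counts, and neither difference was called. The share of Mmp2 in the sum was 62.5 ± 2.11% in Sham, 26.9 ± 2.54% with DMSO and 35.9 ± 5.56% with A10i. Mmp14 held 5.70, 17.3 and 18.4%, Mmp3 held 1.84, 19.9 and 13.6%, and Mmp9 held 0.766, 6.58 and 1.78% in the same order. Mmp2 was the largest member in 10 of 11 libraries, and in A128 Mmp3 was the largest with 28.9%.

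**Figure D4:**
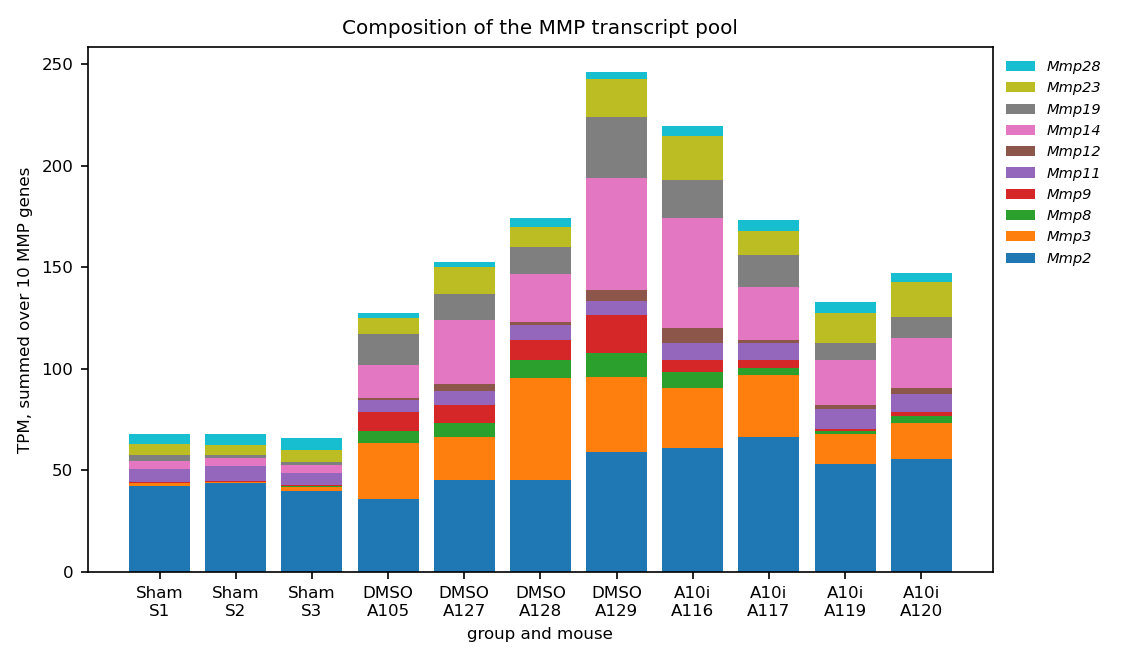
Stacked TPM (y axis) of the 10 MMP genes in each of 11 mice. The Sham bars reach 65.9 to 67.9 TPM and are mostly Mmp2. The infarcted hearts reach 127.3 to 246 TPM with larger parts of Mmp3, Mmp14 and Mmp19 than in Sham, and Mmp2 remains the largest part in all of them except A128. Mmp15, which is not a member, is left out of the bars.

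For each member the 3 genes of most similar profile were found among 14795 genes with a mean of at least 1 CPM, by the root mean square distance of z-scored log2 CPM over the 8 infarcted hearts. A distance of 0 is an identical profile, and the nearest of so many genes over 8 libraries is given as a description. Mmp9 was nearest to Pdpn (0.103), Il17ra (0.158) and Fpr1 (0.159), and Mmp8 to Gm14287 (0.125), Il4ra (0.152) and Fpr1 (0.206). Mmp8 and Mmp9 were each other's nearest member (0.249), as were Mmp12 and Mmp14 (0.373) and Mmp11 and Mmp28 (0.547). Mmp12 was nearest to Ezh2, Tmsb4x and Dek (0.107 to 0.117), and Mmp14 to Zdhhc20, Runx1 and Cd276 (0.121 to 0.133). Mmp23 was nearest to Postn (0.131), Psrc1 (0.176) and Sparc (0.183), of which Postn and Sparc encode matricellular proteins. Mmp2 was nearest to Folr2, Inpp5b and Rdx, Mmp3 to Eif3m, Ppfibp1 and Erbin, Mmp11 to 2410131K14Rik, Cavin2 and Upp2, Mmp19 to Ccl6, Jade3 and Creb3l2, and Mmp28 to Ccdc28b, Slc45a4 and 6430571L13Rik, at distances of 0.150 to 0.286.

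Of the 13 other MMP genes, 7 passed the low count filter between DMSO and Sham, where 1 was higher and 1 was lower. Mmp24 rose by a log2 fold change of 2.98 (SE 0.57, edgeR adjusted p = 0.00323) from 1.69 to 14.3 mean normalized counts, and with 1, 2 and 2 reads in Sham it passed the filter through the DMSO hearts. Mmp15, a membrane-anchored MMP of which the Sham level of 54.6 TPM was above that of Mmp2, fell from 3584 ± 139.6 to 2140.3 ± 359 normalized counts (log2 fold change -0.75, SE 0.12, adjusted p = 0.00139). Mmp27 (2.43, adjusted p = 0.0189), Mmp25 (1.24, 0.0264), Mmp16 (0.77, 0.0837), Mmp13 (-0.58, 0.184) and Mmp17 (0.04, 0.873) were not called. With A10i 5 passed the filter against Sham, of which Mmp27 was higher (3.03, SE 0.61, adjusted p = 0.00354) and Mmp15 lower (-0.57, SE 0.09, adjusted p = 0.00143). Mmp27 had 2, 0 and 6 reads in Sham and passed through the A10i hearts. Mmp24 did not pass in that comparison and has no edgeR value there, but its mean with A10i was 12.1 normalized counts, and DESeq2 called it higher than in Sham (log2 fold change 2.81, adjusted p = 0.00508). Of 7 tested between A10i and DMSO, 0 were called by edgeR or DESeq2, 1 had an unadjusted p under 0.05 in edgeR, and the smallest adjusted p was 0.344, for Mmp17. Mmp7 and Mmp20 had 0 counts in all 11 libraries.

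Among the inhibitors, Timp1 had the largest change against Sham of the 6 genes listed. It had 28.8, 21.0 and 38.1 normalized counts in Sham, 1544, 2691, 2516 and 4885 with DMSO, and 3139, 1736, 1406 and 1568 with A10i. Its log2 fold change was 6.63 (SE 0.49, edgeR adjusted p = 7.78e-05) with DMSO and 6.07 (SE 0.41, adjusted p = 9.41e-05) with A10i. Timp2, which also takes part in the activation of pro-MMP2 by Mmp14, had 3532, 3245 and 3530.0 normalized counts in Sham, 2686, 3410.1, 2726 and 3259.9 with DMSO, and 4302, 4161, 4183 and 4417 with A10i. All A10i hearts were above all others. Timp2 was called higher with A10i than in Sham (0.32, SE 0.07, adjusted p = 0.00459), was not called with DMSO (-0.19, adjusted p = 0.173), and differed by 0.50 (SE 0.10) between A10i and DMSO with adjusted p = 0.0821 in edgeR and 0.000364 in DESeq2. Timp4 was lower with DMSO than in Sham (-0.91, SE 0.18, adjusted p = 0.00486) and was not called with A10i (-0.49, adjusted p = 0.0225). Timp3 (-0.39 with DMSO and -0.24 with A10i), the membrane-anchored inhibitor Reck (-0.27 and -0.07) and A2m (0.42 and 0.36), a broad protease inhibitor, were not called against Sham. None of the 6 inhibitors was called by edgeR between A10i and DMSO.

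Of 17 genes for the activation and docking of MMPs, 13 were tested, and 8 were higher and 1, the proprotein convertase Pcsk6 (log2 fold change -0.98, SE 0.15), lower with DMSO than in Sham. Lrp1, a receptor that clears MMPs, rose (log2 fold change 0.67, SE 0.13). Furin, which cleaves propeptides (0.36, adjusted p = 0.0227), and Bsg, an inducer of MMPs (-0.55, adjusted p = 0.0127), were not called. With A10i 8 were higher and 2 lower than in Sham, the latter being Pcsk6 (-0.51, SE 0.10) and Bsg (-0.46, SE 0.11, edgeR adjusted p = 0.00958). For A10i against DMSO edgeR called 0 and DESeq2 called 1 lower, and 3 were higher and 4 lower at an unadjusted p under 0.05. Of 14 genes of matrix substrates, 9 were higher and 1 lower with DMSO, and 11 were higher and 1 lower with A10i. The gene that fell was in both cases Lama2, a laminin chain of muscle (-0.69 and -0.48). The fibrillar collagens Col1a1 (2.85 and 3.63), Col1a2 (2.12 and 2.90) and Col3a1 (2.42 and 2.96) and the basement membrane collagen Col4a1 (0.66 and 0.68) rose in both, as log2 fold changes from Sham with DMSO and with A10i. Neither edgeR nor DESeq2 called any of the 14 between A10i and DMSO, 3 were higher at an unadjusted p under 0.05, and the median log2 fold change was 0.22 beside 0.0034 over all genes.

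The remaining markers describe the tissue. Of 6 smooth muscle and pericyte markers, Notch3, Rgs5 and Kcnj8 were lower than in Sham in both infarcted groups, and Cnn1 was higher with A10i. Of 6 endothelial markers, Tie1 was lower in both and Kdr with DMSO. Of 4 atrial markers tested, Nppa was higher in both and Myl4 with A10i, while Myl7 and Sln were called in neither. The study also treats NPPA as a heart failure marker, and the part of atrial tissue in these values was not tested. Red blood cell transcripts were called in 0 of 5 in either comparison, and B and T cell markers were at 0.199 to 1.82 CPM summed over 6 genes in any library. Between A10i and DMSO edgeR called 0 markers of these lists and DESeq2 called 1 endothelial marker, Kdr, higher, with 2 smooth muscle and 2 endothelial markers higher at an unadjusted p under 0.05. The infarcted samples held infarct and border zone and the Sham samples healthy heart, so the difference in tissue region and the effect of MI on gene expression within cells cannot be told apart.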

How the data were processed

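Poly(A) RNA of 11 hearts was sequenced as strand-specific libraries in read pairs. Per the submitters' processing notes, reads were demultiplexed with bcl2fastq 2.20.0, aligned to mm10 with GSNAP and counted on Ensembl 98 genes with featureCounts 2.0.1. The authors deposited raw counts per gene, without normalization, and the strand setting of the counting is not given in the sources used here, so reads of overlapping genes on opposite strands are uncertain. Spike-in rows (92 rows, 14 to 55 counts per library) were left out. Symbols came from the GENCODE M21 table, which named 55154 of 55421 identifiers, and positions from the deposited table.

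Each pair of groups was fitted on its own libraries in R 4.3.3 with edgeR 4.0.16 (filterByExpr, TMM and a robust quasi-likelihood fit). The F-test was two-sided, p-values were adjusted over all genes after Benjamini and Hochberg, with a threshold of 0.01. SEs were taken as the log2 fold change divided by the square root of F. The fit was tested on simulated data, where edgeR recovered 65 of 73 genes changed 2-fold and 12 of 64 changed 1.5-fold between A10i and DMSO. The simulation gave every gene the same dispersion, unlike the real hearts, so these numbers do not carry over to them. Levels were compared between A10i and DMSO with an exact permutation test on log2 CPM (prior count 2), in scipy 1.17.1. TPM used the exonic length of the deposited table. Non-overlap means that the lowest value of one group was above the highest of the other. With p-values over 3 or 4 mice, only the spread between these mice is measured. Replicates of a group differed by more than counting noise in all 15 pairs (chi-square per degree of freedom 4.04 to 60.8), and intervals on counts cover counting error only.

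The members and lists were chosen with earlier results of these data known. All 10 members are named, with all inhibitors, the other MMP genes that passed a filter, and of each further list up to 4 genes of highest mean CPM plus the called genes of a list with 5 or fewer calls. Mmp1a, Mmp1b, Mmp7, Mmp20, Ly6g and Trem1 are named for their counts of 0 or nearly 0, after their values were seen. The alternatives were DESeq2 1.42.0, RLE size factors, no filter on low counts, a fit of all 11 libraries, a threshold of 0.05, another prior count, library size alone, CPM without length, other neutrophil markers and leaving out each library. TMM-scaled RPKM was added after seeing the data. Protein sequences were not analysed here, and 1 gene of the activation and docking list is not reported here by name.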

Additional observations from a re-analysis of the deposited data

Results flagged for a closer look

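Within groups of 4 mice, 26 sets of values were searched for a mouse that stood apart from the other 3 by more than Dixon's 95% critical value (gap divided by range), which chance alone exceeds in about 1 of 20 sets. It was met in 2 of these sets. Mmp2 stood apart in A117, at a log2 CPM of 6.53 where the other A10i mice had 6.25 to 6.29 (gap over range 0.861). Mmp14 stood apart in A116, at a log2 CPM of 6.91 where the others had 5.82 to 6.01 (0.832). A116 also had the highest summed macrophage marker level of the A10i mice, at 1561 CPM against 668 to 910.5 CPM. The sum of the matrix substrate genes was likewise highest in A116, at 12584 CPM against 7393 to 7995 CPM. The summed cardiomyocyte marker level of A116 was the lowest of these mice, at 41446 CPM against 51427 to 57319 CPM. The part of these sums in the Mmp14 value was not tested.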

How the results depend on the processing

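Of all genes, 3858 were called between DMSO and Sham, 6832 at a threshold of 0.05, and 1525 to 4051 when each library was left out, the low counts arising without a Sham library, which leaves 2. Between A10i and Sham 3879 were called, 6671 at 0.05, and 1620 to 4365 with libraries left out, again lowest without a Sham library. Between A10i and DMSO 0 were called by edgeR (1193 higher and 1130 lower at an unadjusted p under 0.05), 227 by DESeq2, 43 without the low count filter, 11 in the fit of all 11 libraries, 12 at 0.05, and 0 to 1 with libraries left out. The cause was not tested. The 10 members stayed at 0 calls in this comparison under every alternative taken singly, where the main edgeR fit called 0 of all genes as well. The threshold of 0.05 was applied to edgeR only. In DESeq2 the adjusted p was under 0.05 for Mmp28 (0.0193), Mmp9 (0.0271) and Mmp2 (0.0495). Members called were 8 between DMSO and Sham (6 to 8 with libraries left out, 7 without the filter) and 6 between A10i and Sham (6 to 7, 7 by DESeq2, 5 without the filter, 9 at 0.05). Between A10i and DMSO the sign turned for Mmp12 (log2 fold change -0.29 to 0.75, log2 CPM difference -0.10 to 0.68) and Mmp14 (-0.26 to 0.38 and -0.17 to 0.34) when libraries were left out. The permutation p of 0.0286 could not be reached with 7 mice, where the smallest is 0.0571. Relative to S100a8 and S100a9 alone, the A10i to DMSO ratio was 1.85 for Mmp8 and 1.03 for Mmp9. No paired analysis was possible because the groups share no replicate numbers. Counts limit the Sham levels of Mmp8 (3 reads) and Mmp12 (14 reads).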

Other observations

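Mmp1a and Mmp1b, the rodent interstitial collagenase genes on chromosome 9, had 17 and 11 counts, all of them in the DMSO heart A129. Mmp10 had 13 counts spread over 5 infarcted hearts and 0 in Sham. A129 also had the highest normalized counts of its group for Mmp2, Mmp8, Mmp9, Mmp12, Mmp14, Mmp19 and Mmp23, the highest sum of the neutrophil markers (199 CPM) and of the macrophage markers (1433 CPM), and the smallest share of mitochondrial transcripts of all libraries (14.8%). These genes were named after their values were seen. A119, the A10i heart with the lowest Mmp8 and Mmp9, had the lowest neutrophil sum of the infarcted hearts (31.9 CPM) and the smallest MMP sum of the A10i group (133 TPM). The summed cardiomyocyte markers were highest of the infarcted hearts in A119 (57319 CPM) and lowest in A129 (34826 CPM). The part of these sums in the MMP values was not tested.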
